A study of Homo sapiens with 12 samples.

Results

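The genes described here are 8 transcription factors of the primitive streak: T (named TBXT in RefSeq), EOMES, TBX6, MIXL1, GSC, LHX1, MESP1 and MESP2. They were taken as the lines of the expression table whose symbol is one of these names, 8 of 56593 distinct symbols, and each name stood on a single line. Their RNA was measured in 12 libraries. Undifferentiated H1 cells, a long-established embryonic stem cell line of human origin, gave 3 libraries. The other 9 came from H1 cells differentiated in a custom mTeSR1 medium, first with activin A at 40 ng/ml and BMP4 at 50 ng/ml for 2 days, then with VEGF at 40 ng/ml and bFGF at 50 ng/ml for up to 6 more days. These concentrations are those of the labels, and the methods of the study give the amounts of activin A and BMP4 the other way round. From these cultures APLNR+ cells were sorted on day 2, CD31+CD34+ cells on day 5 and CD43+ cells on day 8, with 3 libraries for each. No group carries a gene change, and all groups come from 1 cell line. The labels do not say whether libraries of a population came from separate cultures, so a p-value measures only the spread between these libraries, which may be technical.

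In the embryo, the primitive streak is the region where epiblast cells leave the epithelium and become mesoderm or definitive endoderm. Nodal, Wnt and BMP signals from neighbouring tissues switch on a small set of transcription factors there, among them T-box, homeobox and basic helix-loop-helix proteins, and most are shut off again once the cells have moved away and taken up a lineage. Activin A acts through the receptors of Nodal, so activin with BMP4 is a common way to obtain streak-like cells from human stem cells in culture.

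Levels are given as FPKM, a fragment count scaled to the length of the transcript and the depth of the library, which can be set side by side between genes. Changes are differences of log2(FPKM + 1) from limma, with the standard error and a p adjusted over 14840 genes. The added 1 makes these differences smaller than the true log2 ratio where a gene is below a few FPKM. A gene was called raised or lowered where the adjusted p was under 0.05 and the change was 2-fold or more. A gene below 1 FPKM in the starting population could not be called lowered. With 1 added, even a complete loss stays under 2-fold there. All 8 factors reached 1 FPKM in at least 3 libraries and were tested. TBX6 and GSC did so through the APLNR+ libraries alone, and without those only EOMES and LHX1 would have passed.

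The libraries went with their labels. APLNR, the receptor used for the first sort, stood at 0.528 ± 0.152 FPKM in H1 cells and at 383 ± 22.2 in APLNR+ cells (SD, n = 3). The summed level of 7 endothelial markers had a median of 806 FPKM over the CD31+CD34+ libraries (611 to 852) and of 66.4 over the APLNR+ libraries. It was still 322 to 419 FPKM in CD43+ cells. The summed level of 7 blood markers was 2346 to 2864 FPKM in CD43+ cells and 34.0 to 44.2 in CD31+CD34+ cells. Between 12297 and 13060 genes per library reached 1 FPKM. The smallest regular step of the values, taken as 1 fragment, was between 0.00460 and 0.0106 FPKM for a transcript of 2 kb. It was largest in replicate 1 of every population, so that replicate 1 was the shallowest each time. Values of a factor below about 0.02 FPKM therefore rest on very few fragments.

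The sequence upstream of the factors' start sites is shown for the 3 genes in which a motif for TCF/LEF, the DNA-binding partners of beta-catenin, or for FOXH1, the partner of SMAD proteins downstream of Nodal and activin, was found. RefSeq (GRCh38.p14) gave 7 windows for 6 of the 8 factors, with 2 start sites for T. Each covers the bases from 250 to 51 upstream of the start site, read on the strand of the gene. Capitals mark the motif. The MIXL1 window lies at chr1:226223414-226223613 (plus strand) and holds TGTGGATT, which is the FOXH1 motif AATCCACA on the opposite strand, 249 bases upstream, and the TCF/LEF motif CTTTGAT 76 bases upstream. The window of the second T start site lies at chr6:166167902-166168101 (minus strand) and holds TTCAAAG, the TCF/LEF motif CTTTGAA on the opposite strand, 88 bases upstream. The MESP2 window lies at chr15:89776082-89776281 (plus strand) and holds the FOXH1 motif AATCCACA 155 bases upstream.
MIXL1: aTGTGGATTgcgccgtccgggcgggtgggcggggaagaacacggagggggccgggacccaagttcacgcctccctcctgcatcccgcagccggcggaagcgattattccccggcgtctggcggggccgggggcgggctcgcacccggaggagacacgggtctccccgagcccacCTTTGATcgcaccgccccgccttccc
T: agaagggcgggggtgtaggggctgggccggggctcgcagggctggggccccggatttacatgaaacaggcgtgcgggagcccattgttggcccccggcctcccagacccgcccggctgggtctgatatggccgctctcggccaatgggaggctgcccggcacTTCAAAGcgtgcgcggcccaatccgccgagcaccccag
MESP2: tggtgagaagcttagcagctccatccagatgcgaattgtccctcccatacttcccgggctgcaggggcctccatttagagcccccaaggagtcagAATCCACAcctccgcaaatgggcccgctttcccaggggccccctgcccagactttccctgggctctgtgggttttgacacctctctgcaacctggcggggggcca

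The motifs were searched on both strands in 35116 windows of the same place and length. Of these, 1.89% held CTTTGAT and 3.19% held CTTTGAA. AATCCACA was in 0.572% of all windows and in 2 of the 7 of the factors, those of MIXL1 and MESP2. A second FOXH1 form, AATACACA, was in 0.544% of all windows, and the T-box motif GGTGTGA in 2.27%. Neither was found in the 7 windows. The short SMAD motif CAGAC was in 5 of the 7 windows (MIXL1, the second start of T, GSC, MESP2 and TBX6) and in 32.4% of all windows. A match in these windows is a description of the letters and not a bound site.

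The first comparison asks which of the factors differ between undifferentiated cells and APLNR+ cells 2 days into differentiation. All 8 were raised in APLNR+ cells, with log2 changes between 1.15 (TBX6) and 5.88 (MIXL1) and a median of 4.14, where the median of all genes tested was -0.12. In this comparison 8.30% of all genes tested were raised and 7.62% were lowered. For each of the 8, every APLNR+ library was above every one of the other 9 libraries, a pattern that 9.82% of the genes tested shared. In bulk RNA, a larger share of cells with a transcript and more transcript per cell cannot be told apart. The plot of levels by library shows this peak for each factor and the much lower values on either side of it.

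**Figure D1:**
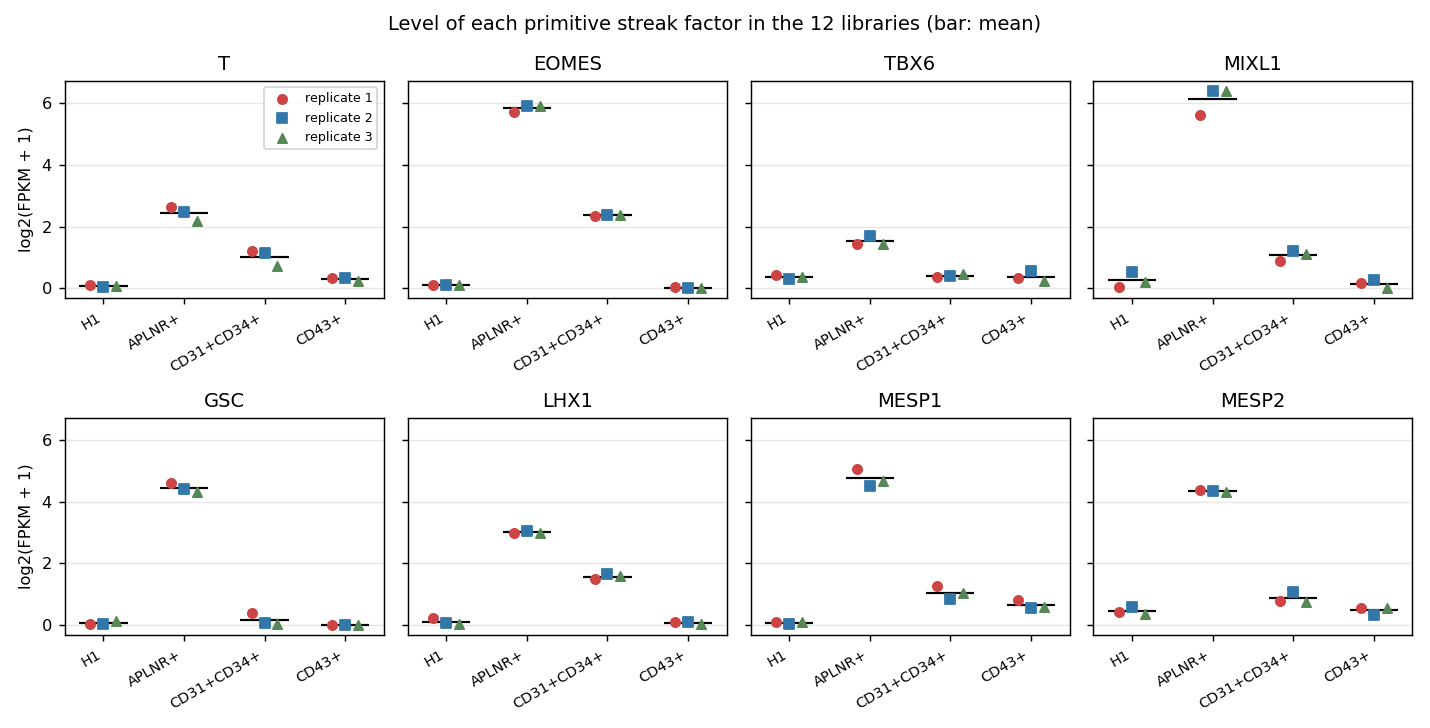
Level of each factor as log2(FPKM + 1) in the 12 libraries, 1 panel per gene, with populations on the horizontal axis, a symbol for each replicate and a bar at the mean of each population. All 8 factors have their highest values in APLNR+ cells, and EOMES, LHX1, MIXL1, MESP1 and T keep a mean above 1 FPKM in CD31+CD34+ cells.

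Among the T-box factors, EOMES, which is needed for definitive endoderm and for the earliest mesoderm, was at 0.0619, 0.0793 and 0.0638 FPKM in the 3 H1 libraries. In the APLNR+ libraries it was at 51.5, 58.7 and 59.1 FPKM. The groups were far apart, and the log2 change was 5.75 ± 0.08 (limma, adjusted p = 4.62e-13).

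T, also called Brachyury, is the general marker of the streak and is required for mesoderm to leave it. It stood at 0.0727, 0.0240 and 0.0438 FPKM in H1 cells and at 5.23, 4.55 and 3.53 FPKM in APLNR+ cells. Its level in APLNR+ cells was below that of 6 of the other 7 factors. Its log2 change was 2.36 ± 0.14 (limma, adjusted p = 3.07e-08).

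TBX6, which directs cells towards paraxial mesoderm, was the lowest of the 8 in APLNR+ cells, at 1.70, 2.21 and 1.72 FPKM. In H1 cells it stood at 0.331, 0.240 and 0.298 FPKM, so it differed by a log2 change of 1.15 ± 0.10 (limma, adjusted p = 1.45e-06). Even so its groups did not overlap.

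Among the homeobox factors, MIXL1, a direct target of Nodal and activin signals in streak cells, had the highest mean in APLNR+ cells. Its 3 libraries there read 48.1, 83.4 and 82.3 FPKM, against 0.0370, 0.440 and 0.140 FPKM in H1 cells. The spread of MIXL1 in APLNR+ cells (SD 20.1) was the widest of the 8 and came from replicate 1, the shallower library. The log2 change was 5.88 ± 0.20 (limma, adjusted p = 2.34e-10), and it was 6.13 when that library was left out.

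GSC marks the anterior streak and the organizer, where it acts as a repressor. It was at 0.0158, 0.0295 and 0.0840 FPKM in H1 cells and at 23.3, 20.1 and 18.9 FPKM in APLNR+ cells. This is a log2 change of 4.38 ± 0.11 (limma, adjusted p = 2.08e-11).

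LHX1, a LIM-homeodomain factor of the anterior streak and later of intermediate mesoderm, stood at 6.98, 7.19 and 6.88 FPKM in APLNR+ cells, the tightest values of any factor there. In H1 cells it read 0.159, 0.0412 and 0.0254 FPKM, and the log2 change was 2.90 ± 0.08 (limma, adjusted p = 5.51e-11). An exon of LHX1 overlaps the antisense gene AC243773.1, which the table lists at 0 in all 12 libraries.

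The basic helix-loop-helix factors MESP1 and MESP2 differ in their known roles, MESP1 in the earliest cardiac and vascular mesoderm and MESP2 in the segmentation of somites. MESP1 stood at 0.0776, 0.00935 and 0.0578 FPKM in H1 cells and at 32.3, 21.8 and 24.6 FPKM in APLNR+ cells. MESP2 stood at 0.327, 0.482 and 0.272 FPKM in H1 cells and at 19.8, 19.4 and 18.7 FPKM in APLNR+ cells. Both were raised, MESP1 by a log2 change of 4.68 ± 0.15 (limma, adjusted p = 1.2e-10) and MESP2 by 3.90 ± 0.11 (limma, adjusted p = 5.51e-11). None of 2368 stretches of 50 bases in MESP1 transcripts and none of 1770 in MESP2 transcripts occurred in another gene.

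The levels in APLNR+ cells formed an order with some clear steps. MIXL1 (71.3 ± 20.1 FPKM, SD, n = 3) and EOMES (56.5 ± 4.28) overlapped at the top. MESP1 (26.2 ± 5.41), GSC (20.7 ± 2.27) and MESP2 (19.3 ± 0.527) followed, each overlapping the next. LHX1 (7.02 ± 0.157), T (4.44 ± 0.857) and TBX6 (1.88 ± 0.290) came last, and none of these overlapped its neighbour in the order. In H1 cells, by contrast, all means lay between 0.0431 (GSC) and 0.360 FPKM (MESP2), and each factor overlapped the next.

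The second comparison asks what becomes of the factors between APLNR+ cells and CD31+CD34+ cells, which the study treats as hemogenic endothelial progenitors. All 8 were lowered, with a median log2 change of -3.48, where 17.1% of the genes tested were lowered and 12.5% were raised and the median of all genes was -0.01. The fall was unequal, and the plot of log2 changes sets the 5 comparisons side by side.

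**Figure D2:**
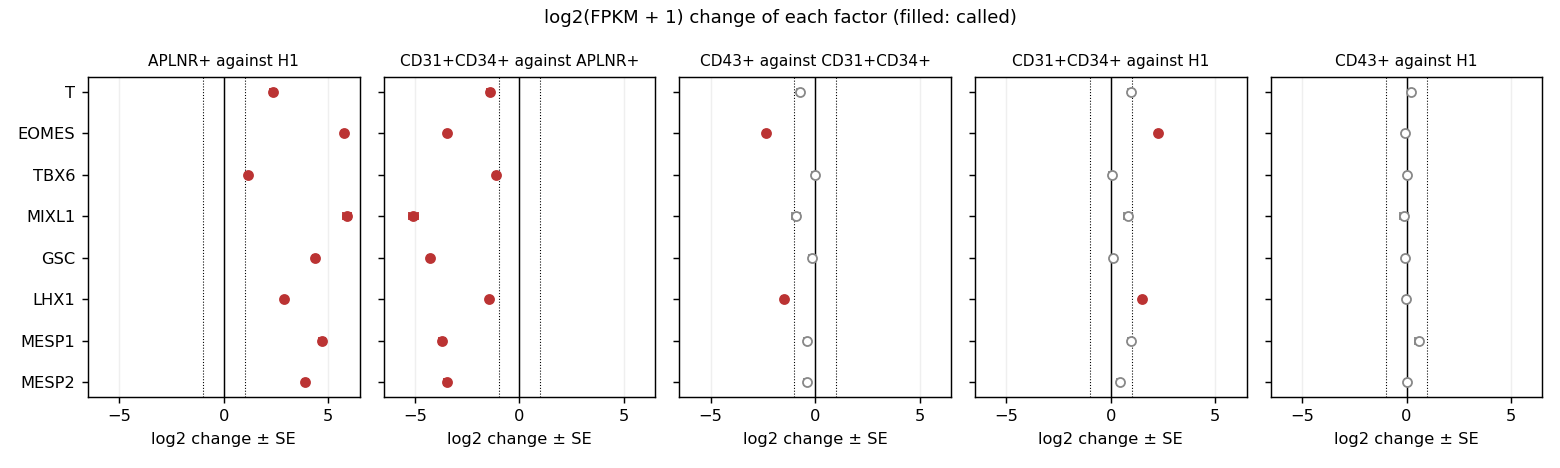
Change of each factor in log2(FPKM + 1) with its standard error in the 5 comparisons, with dotted lines at a 2-fold change and filled points for called genes. All 8 factors are filled in the first 2 panels, EOMES and LHX1 alone in the next 2, and none in the last, CD43+ cells against H1 cells.

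EOMES remained at 4.06, 4.18 and 4.17 FPKM in CD31+CD34+ cells, a change of -3.48 ± 0.08 (limma, adjusted p = 1.95e-11). LHX1 remained at 1.79, 2.11 and 2.01 FPKM and changed by -1.43 ± 0.08 (limma, adjusted p = 2.15e-08). Both had closely spaced replicates that lay far above the H1 libraries.

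T read 1.32, 1.21 and 0.650 FPKM in CD31+CD34+ cells, so its replicates spread more than those of EOMES and LHX1. Its change was -1.40 ± 0.14 (limma, adjusted p = 1.98e-06). MESP1 read 1.40, 0.788 and 1.06 FPKM, and MESP2 0.721, 1.10 and 0.678 FPKM. The changes were -3.70 ± 0.15 (limma, adjusted p = 9.45e-10) for MESP1 and -3.48 ± 0.11 (limma, adjusted p = 1.53e-10) for MESP2.

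MIXL1 and GSC fell furthest. MIXL1 read 0.848, 1.28 and 1.16 FPKM in CD31+CD34+ cells, a change of -5.07 ± 0.20 (limma, adjusted p = 8.42e-10). GSC read 0.316, 0.0433 and 0.0295 FPKM, a change of -4.27 ± 0.11 (limma, adjusted p = 2.78e-11). Replicate 1 of CD31+CD34+ cells, the shallowest of the 12 libraries, thus held several times the GSC level of the other 2.

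TBX6 read 0.277, 0.308 and 0.375 FPKM, which overlapped its values in H1 cells. Its change was -1.12 ± 0.10 (limma, adjusted p = 1.1e-06), near the 2-fold limit. After rescaling so that the genes tested summed to the same total in each library it was -0.96 and no longer called.

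Set against its mean in APLNR+ cells, each factor kept a different share in CD31+CD34+ cells. LHX1 kept 28.1% ± 2.34 (SD, n = 3) and T 23.9% ± 8.07. TBX6 was at 17.1% ± 2.68, but H1 cells already held 15.5% ± 2.44 of its APLNR+ level. EOMES kept 7.33% ± 0.113, MESP2 4.31% ± 1.19, MESP1 4.13% ± 1.16 and MIXL1 1.54% ± 0.313. GSC kept 0.625% ± 0.779, and 0.187% with replicates 2 and 3 alone. The shares depended on the scaling between libraries. Summed over all genes, FPKM ran from 568000 (CD31+CD34+ replicate 2) to 1576000 (APLNR+ replicate 2). Replicates 1 and 3 of CD31+CD34+ cells had 1439000 and 573300. After rescaling to equal totals the shares were 41.5% for LHX1, 31.3% for T, 26.1% for TBX6, 10.8% for EOMES, 6.42% for MESP2, 5.18% for MESP1, 2.54% for MIXL1 and 0.549% for GSC. Factors with like levels in APLNR+ cells did not always keep like shares. EOMES and MIXL1 overlapped in APLNR+ cells, but in CD31+CD34+ cells EOMES stood at 4.14 ± 0.0637 FPKM and MIXL1 at 1.10 ± 0.223. The shares of MESP1 and MESP2, by contrast, were alike.

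**Figure D3:**
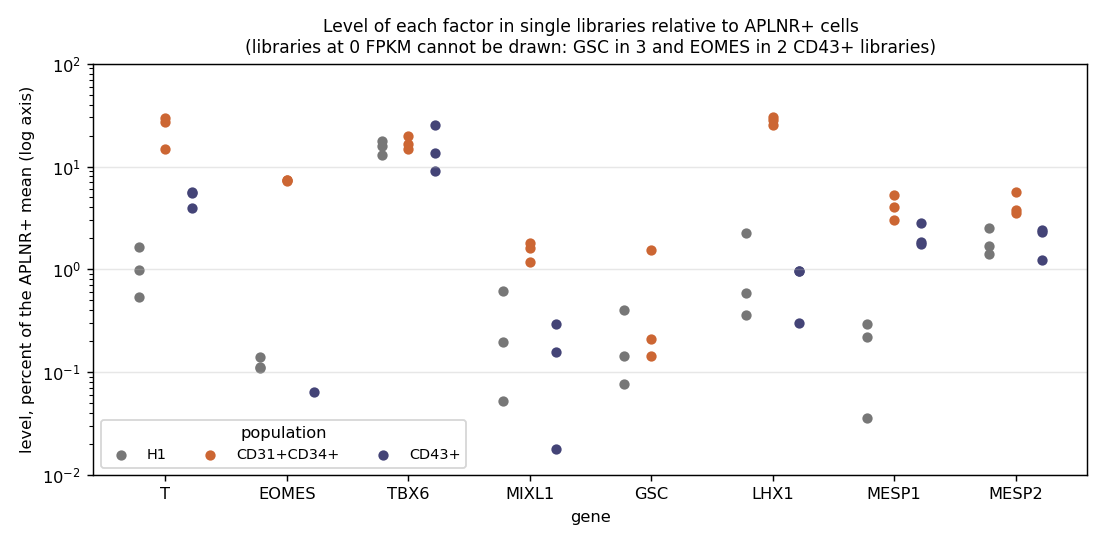
Level of each factor in single libraries of H1, CD31+CD34+ and CD43+ cells as a percentage of its mean in APLNR+ cells, on a log axis. In CD31+CD34+ cells LHX1 lies between 25.5% and 30.1% and MIXL1 between 1.19% and 1.80%, while the means of TBX6 lie between 15.5% and 17.1% in all 3 populations.

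To test these unequal falls within libraries, each factor was divided by EOMES in the same library, a reference picked with the values known. From APLNR+ to CD31+CD34+ cells the log2 ratio to EOMES rose by 1.93 for LHX1, by 1.66 for T and by 1.22 for TBX6. It fell by 0.80 for MESP2, by 0.85 for MESP1, by 2.23 for MIXL1 and by 4.36 for GSC. For each of the 7 ratios the exact two-sided permutation test gave p = 0.1, and 0.1 after Benjamini-Hochberg adjustment over the 7. This is the smallest p that 3 against 3 libraries can give, so the test cannot pass 0.05 in this design.

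As a consequence the order of levels was different in CD31+CD34+ cells. EOMES (4.14 FPKM) and LHX1 (1.97 ± 0.164) led without overlap. MIXL1, MESP1 (1.08 ± 0.305), T (1.06 ± 0.358) and MESP2 (0.832 ± 0.230) overlapped in turn, and TBX6 (0.320 ± 0.0503) and GSC (0.130 ± 0.161) overlapped at the bottom. LHX1 thus moved from rank 6 to rank 2, and GSC from rank 4 to rank 8.

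Against H1 cells, the question is which factors were still above the undifferentiated level in CD31+CD34+ cells. EOMES (log2 change 2.27 ± 0.08, limma, adjusted p = 2.37e-10) and LHX1 (1.47 ± 0.08, limma, adjusted p = 8.86e-09) were raised, 2 of 8, where 16.9% of the genes tested were raised and 23.2% lowered. MESP1 (0.98, adjusted p = 5.72e-05) and T (0.96, adjusted p = 3.98e-05) lay just under the 2-fold limit. MIXL1 differed by 0.81 (adjusted p = 0.00266), MESP2 by 0.43 (adjusted p = 0.00399), and GSC and TBX6 by 0.11 and 0.03. With a pseudocount of 0.1, which takes less from low genes, 6 of the 8 were raised, where 22.1% of all genes tested were. After rescaling to equal totals 5 were raised, where 36.5% of all genes were.

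The third comparison follows the factors into CD43+ cells, the blood progenitors. EOMES and LHX1, the factors with the most left, were lowered again, 2 of 8, where 8.79% of the genes tested were lowered and 5.58% raised. EOMES was listed at 0.0365, 0 and 0 FPKM and changed by -2.34 ± 0.08 (limma, adjusted p = 8.31e-10). Its values of exactly 0 can also be failed estimates, so the size of this change is uncertain. The library above 0 was still far below every CD31+CD34+ library. LHX1 read 0.0677, 0.0671 and 0.0212 FPKM and changed by -1.50 ± 0.08 (limma, adjusted p = 2.73e-08).

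The other 6 were not called. MESP2, TBX6 and GSC had means below 1 FPKM in CD31+CD34+ cells and could not have been called lowered. T (1.06 FPKM), MESP1 (1.08) and MIXL1 (1.10) had means just above 1 FPKM there, so only an almost complete loss could have been called. With a pseudocount of 0.1, T (-1.79) and MIXL1 (-2.60) were called lowered, where 14.7% of all genes tested were. MIXL1 (0.112, 0.209 and 0.0128 FPKM) changed by -0.91 ± 0.20 (limma, adjusted p = 0.00209), and by -1.004, which is called, when the fit used replicates 2 and 3 alone. It was also called after rescaling to equal totals, at -1.18. T (0.247, 0.248 and 0.177 FPKM) changed by -0.74 (adjusted p = 0.000762), MESP1 (0.741, 0.466 and 0.482 FPKM) by -0.41 (adjusted p = 0.0342) and MESP2 (0.468, 0.240 and 0.450 FPKM) by -0.40 (adjusted p = 0.00964). T, MIXL1 and MESP2 read lower in every CD43+ library than in any CD31+CD34+ library, as did MESP1. The share of all genes tested with this pattern was not counted. With no minimum change, 27.8% of them were lowered at this step. TBX6 read 0.254, 0.480 and 0.169 FPKM, a range that takes in all its CD31+CD34+ values. GSC was listed at 0 in all 3 CD43+ libraries, for which no fold is given because a value of exactly 0 in this kind of table can also be a failed estimate.

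Against H1 cells, 0 of the 8 factors were called in CD43+ cells, where 14.6% of the genes tested were raised and 22.5% lowered. All 8 lay below 1 FPKM in every H1 library, so none of them could have been called lowered. MESP1 was the only factor with an adjusted p under 0.05 (limma, log2 change 0.57 ± 0.14, adjusted p = 0.00367), and each CD43+ library (0.466 to 0.741 FPKM) was above each H1 library (0.00935 to 0.0776 FPKM). T behaved alike in FPKM, with 0.177 to 0.248 in CD43+ and 0.0240 to 0.0727 in H1 cells, at a log2 change of 0.23 (adjusted p = 0.158). With a pseudocount of 0.1 both were called, T at 1.15 and MESP1 at 2.17, where 19.0% of all genes tested were raised. The other factors differed by between -0.11 and 0.03 on the log2 scale. Without replicate 1 of any population, 8 factors were raised in APLNR+ cells, 8 were lowered in CD31+CD34+ cells and 3 were lowered in CD43+ cells. Compared with H1 cells, 2 were then raised in CD31+CD34+ and 0 in CD43+ cells. In the same order, 8.49%, 17.5%, 8.92%, 17.8% and 15.6% of all genes tested went that way.

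Over the 12 libraries the 8 factors moved together. Pearson's r of log2(FPKM + 1) had a median of 0.960 over the 28 pairs, from 0.865 (TBX6 and LHX1) to 0.994 (MIXL1 and MESP2). These values describe a peak shared by 3 of 12 libraries of 1 population and say little about smaller differences. Among other genes, the 3 with the highest r for each factor were sought in 10476 genes tested whose highest population mean was at least 5 FPKM.

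The genes nearest to the T-box factors were HAS2 for EOMES (r = 0.997), HS3ST3A1 for T (r = 0.994) and COBLL1 for TBX6 (r = 0.984), each over 12 libraries. HAS2 makes hyaluronan, a matrix sugar that surrounds migrating mesoderm, and its means were 1.23 FPKM in H1, 143 in APLNR+ and 12.2 in CD31+CD34+ cells. PENK and KRT16P1 followed for EOMES, KRT16P3 and DNAJC15 for T, and WNT4 and LIX1 for TBX6. KRT16P1 and KRT16P3 are near-identical keratin pseudogenes, so that their values are uncertain.

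For the homeobox factors the nearest were LIX1 for MIXL1 (r = 0.998), followed by ATP12A and GRP, and WNT4 for GSC (r = 0.997), followed by CER1 and PSKH2. WNT4, a Wnt ligand, went from 0.0855 to 8.49 FPKM and back to 0.00992 in CD31+CD34+ cells. ARHGAP40 was nearest to LHX1 (r = 0.997), then NCAM1, a cell adhesion molecule, and SERHL2. NCAM1 kept 8.11 FPKM in CD31+CD34+ cells after 26.5 in APLNR+ cells. For the helix-loop-helix factors WNT5A was nearest to MESP1 (r = 0.994), followed by CCNG2 and MAMLD1, and ATP12A to MESP2 (r = 0.997), followed by AC131094.1 and MFAP4.

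The signals that induce the streak were followed with a list of 25 ligands, receptors and effectors of the Nodal, Wnt, BMP and FGF pathways, of which 22 were tested. Between H1 and APLNR+ cells 10 were raised and 1 lowered, with a median log2 change of 0.95. BMP4, which was also an agent of the culture, stood at 0.878 ± 0.289 FPKM in H1 cells and at 93.6 ± 3.52 in APLNR+ cells (limma, log2 change 5.66, adjusted p = 2.11e-12). WNT5A, a ligand of Wnt signals in the streak that do not use beta-catenin, went from 0.524 ± 0.146 to 51.1 ± 5.72 FPKM (limma, log2 change 5.09, adjusted p = 1.5e-11). TCF7L1, a repressor of Wnt targets in stem cells, was lowered from 3.52 ± 0.137 to 0.940 ± 0.0525 FPKM (limma, log2 change -1.22, adjusted p = 2.3e-06), and lost its call after rescaling to equal totals.

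Of the same 22, 8 were lowered and 0 raised from APLNR+ to CD31+CD34+ cells, among them NODAL, its co-receptor TDGF1, FGF8 and WNT8A. After rescaling to equal totals 7 were lowered and 1, ACVR1B, raised, and FGF17 lost its call. NODAL, the ligand that activin A replaces in culture, read 2.98 ± 0.613 FPKM in H1 cells, 6.43 ± 0.411 in APLNR+ cells and 0.471 ± 0.0600 in CD31+CD34+ cells. It was lowered at the second step (limma, log2 change -2.34, adjusted p = 3.71e-09). From CD31+CD34+ to CD43+ cells 6 of the 22 were lowered and 1, WNT5B, raised.

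Secreted antagonists and feedback genes of these pathways were followed with a list of 13, all tested. In APLNR+ cells 10 were raised and 0 lowered, with a median log2 change of 2.48, while FRZB (0.68), CHRD (0.41) and AXIN2 (0.61) were not called. CER1, which binds Nodal and BMP ligands, went from 1.74 ± 0.270 FPKM in H1 cells to 2238 ± 67.5 in APLNR+ cells, and CD31+CD34+ cells again held 1.83 ± 0.497. DKK1, which blocks Wnt receptors, went from 0.110 ± 0.0508 to 65.4 ± 1.64 and then to 3.62 ± 0.284 FPKM. Both were raised and then lowered (limma, CER1 log2 changes 9.68 and -9.64, DKK1 5.90 and -3.85). From APLNR+ to CD31+CD34+ cells 7 of the 13 were lowered and 0 raised, and to CD43+ cells 6 were lowered and 0 raised. SP5, a direct Wnt target, was not called at the second step, with 9.60 ± 0.703 FPKM before it (APLNR+) and 17.7 ± 0.685 after it (CD31+CD34+), and NOTUM, which inactivates Wnt ligands, read 4.78 ± 0.772 and 3.88 ± 0.830. After rescaling to equal totals SP5 was raised at that step and NOG lost its call, which made 6 lowered and 1 raised.

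**Figure D4:**
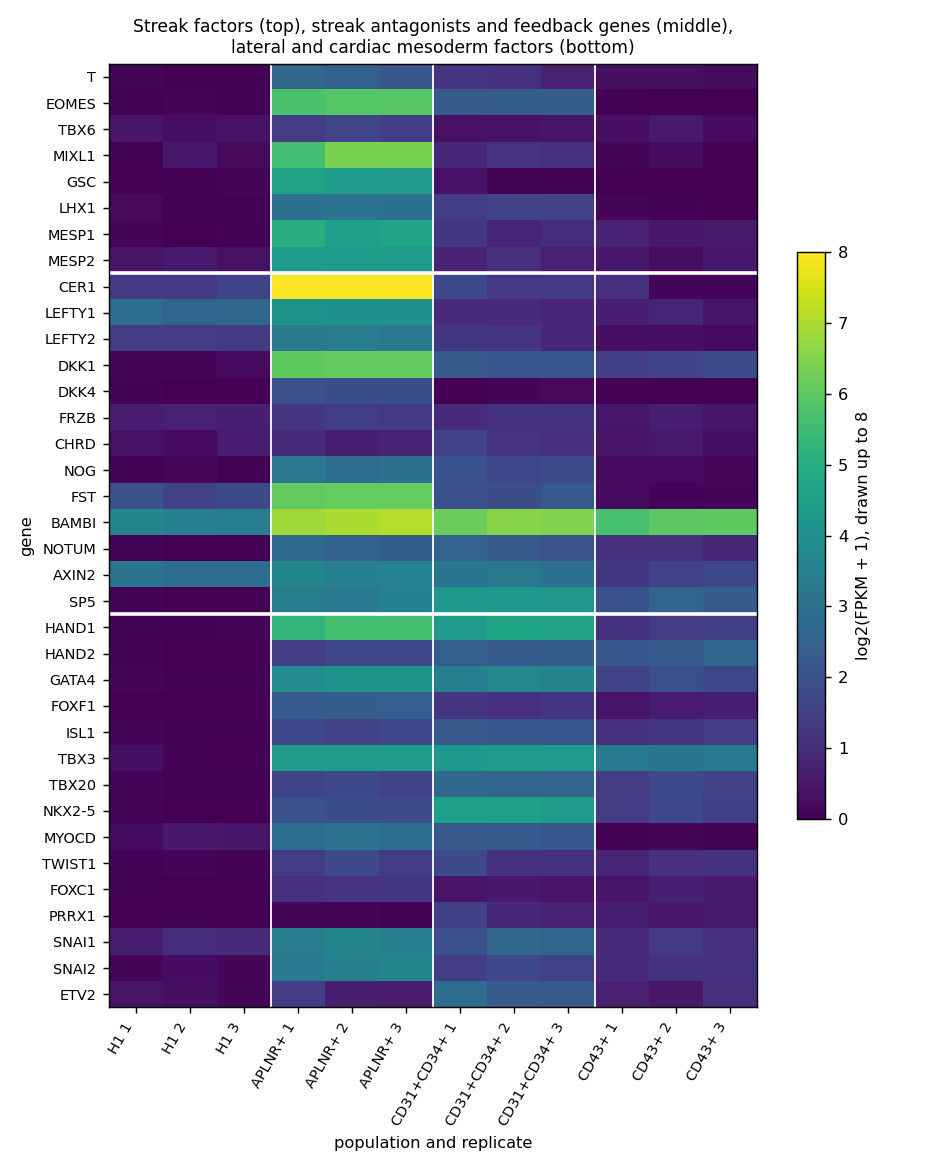
Level as log2(FPKM + 1), drawn up to 8, in the 12 libraries (columns). Rows are, from top to bottom, the 8 streak factors, 13 antagonists and feedback genes and 15 genes listed as lateral and cardiac mesoderm factors. The streak factors are brightest in the 3 APLNR+ columns, though T and TBX6 are dim there too. Of the mesoderm factors at the bottom, TBX3 stays bright in the CD31+CD34+ columns and NKX2-5 is brighter there than in the APLNR+ columns.

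Lateral and cardiac mesoderm factors were followed for comparison. The list also held SNAI1 and SNAI2, which the study counts among the core factors of epithelial-mesenchymal transition. Of 15 on the list 14 were tested, and 13 were raised in APLNR+ cells and 0 lowered, with a median log2 change of 2.11. From APLNR+ to CD31+CD34+ cells 3 were lowered (FOXF1, SNAI1 and SNAI2) and 2 were raised (NKX2-5 and ETV2). SNAI1 lost its call under quantile normalization, after rescaling to equal totals and with replicates 2 and 3 alone. After rescaling FOXF1 lost its call too and HAND2 and TBX20 were raised, which made 4 raised and 1 lowered. Under quantile normalization HAND1 was lowered and TBX20 raised, which made 3 raised and 3 lowered. The difference in these shares from the 8 of 8 streak factors lowered was not tested. HAND1, a factor of lateral and extraembryonic mesoderm, went from 0.0569 ± 0.0117 FPKM in H1 cells to 44.9 ± 7.19 in APLNR+ cells, and CD31+CD34+ cells held 22.6 ± 3.49. Its log2 change from APLNR+ to CD31+CD34+ cells was -0.96 (limma, adjusted p = 8.58e-05), just under the 2-fold limit. TBX3, a T-box factor of lateral mesoderm, went from 0.108 ± 0.131 to 20.4 ± 0.402 and 18.8 ± 0.666 FPKM. To CD43+ cells 8 of the 14 were lowered and 0 raised.

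The organizer and definitive endoderm, where EOMES, GSC and LHX1 act in the embryo, were represented by 12 genes, of which 7 were tested. In APLNR+ cells 4 were raised (SOX17, OTX2, CXCR4 and GATA6) and FOXD3 was lowered. GATA6 went from 0.0333 ± 0.0102 to 42.0 ± 3.07 FPKM and SOX17 from 0.0624 ± 0.0813 to 17.5 ± 1.87 FPKM (limma, log2 changes 5.38 and 4.12). FOXD3, a stem cell factor that also acts early in the embryo, fell from 4.53 ± 0.533 to 0.0179 ± 0.0109 FPKM (limma, log2 change -2.44, adjusted p = 1.7e-10). FOXA2, a pioneer factor of endoderm and node, was too low to be tested, with 0.392 ± 0.209 FPKM in APLNR+ cells. In CD31+CD34+ cells 2 were raised (HHEX and CXCR4) and 2 lowered, and in CD43+ cells 0 were raised and 5 lowered.

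The presomitic and segmentation genes, the usual company of TBX6 and MESP2, were mostly at low levels, with 3 of 12 tested. DLL3, a modulator of Notch in the presomitic mesoderm, was raised from 2.05 ± 0.390 to 33.8 ± 4.40 FPKM in APLNR+ cells (limma, log2 change 3.51, adjusted p = 6e-10). LFNG was lowered from 9.77 ± 0.736 to 2.04 ± 0.406 FPKM and TCF15 from 2.97 ± 0.673 to 0.570 ± 0.164 FPKM (limma, log2 changes -1.83 and -1.33). MSGN1, a partner of TBX6 in the mouse, was not tested and stood at 0.0734 FPKM in APLNR+ cells. At the second step LFNG was raised and DLL3 lowered, and at the third LFNG alone was lowered.

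Markers of other cells also differed between the populations, though not in the pattern of the streak factors, and their part in the result was not tested. The summed level of 7 markers of undifferentiated cells was 1936 to 2022 FPKM in H1 cells, 612 to 697 in APLNR+ cells, and lower at the later stages, at 314 to 393 (CD31+CD34+) and 151 to 177 (CD43+). All 7 were lowered at the first step, though 4 of 7 were after rescaling to equal totals. SOX2, a core factor of undifferentiated and neural cells, was at 0.269 ± 0.0638 FPKM in APLNR+ cells after 43.0 ± 4.26 in H1 cells, whereas POU5F1, which early mesoderm also keeps for a time, was at 354 ± 20.8 after 1002 ± 31.2.

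The summed level of 7 endoderm markers was 8.29 to 9.42 FPKM in H1 and 19.1 to 22.2 in APLNR+ cells, and the later stages read 34.6 to 45.0 (CD31+CD34+) and 8.15 to 9.41 (CD43+). Single genes carried these sums. AFP was at 8.56 ± 0.869 FPKM in H1 and 0.990 ± 0.686 in APLNR+ cells, and SOX17 at 17.5 ± 1.87 FPKM in APLNR+ and 24.2 ± 4.07 in CD31+CD34+ cells. None of the 7 was at 0 in a whole population, and of the 4 tested SOX17 was raised and AFP lowered in APLNR+ cells. SOX17 is also a factor of hemogenic endothelium. The summed level of 9 amnion and trophoblast markers was 7.25 to 8.08 FPKM in H1, 12.6 to 14.1 in APLNR+, 14.7 to 16.6 for CD31+CD34+ and 4.79 to 6.67 for CD43+ cells, with 4 of 7 tested raised and KRT7 lowered in APLNR+ cells. That of 6 neural markers was 33.9 to 45.0 FPKM in H1 and 56.4 to 60.9 in APLNR+ cells, of which NES was the only one tested and was not called there.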

How the data were processed

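RNA-seq was analysed for 12 libraries, grouped by their titles. Per the labels, RNA was extracted with Trizol and libraries were made with an Illumina kit. The authors deposited FPKM values in a single table. The submitters' processing notes name BWA, Bowtie, RSEM and hg19 without a role or version, and no scaling between libraries is given in the sources used here. More than 1 company is named for sequencing in the study as a whole, and which of them sequenced these libraries is not given in the sources used here.

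For a symbol on several lines (345 symbols, none of them a factor) the line of highest mean entered. All 4 populations entered 1 model of log2(FPKM + 1) in limma 3.58.1 (R 4.3.3, eBayes with trend, Benjamini-Hochberg adjustment) over 14840 genes at 1 FPKM or more in at least 3 libraries, and the fit was tested on simulated data. FPKM are not counts, so no count model was used and intervals for counting error are not given. Depth was judged from the lowest step of FPKM times length over 16625 genes of 500 to 5000 bases. The precision is limited by 3 libraries per population. Exact permutation tests used SciPy 1.17.1.

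Promoter windows and gene order came from RefSeq (GRCh38.p14), a build other than that of the values, so no sequence was read by the coordinates of the files. The factors and lists were chosen with earlier results of these data known. Named were all factors, the 2 largest called rises and falls per list from H1 to APLNR+ cells, markers, the 3 genes most like each factor and the nearest genes in RefSeq. Genes named besides these were picked after their values were seen. Alternatives changed the pseudocount, filter, scaling, samples, variance model, minimum change, replicate block and duplicate symbols, and left out each library in turn.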

Additional observations from a re-analysis of the deposited data

How the results depend on the processing

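The 8 factors raised in APLNR+ cells and the 8 lowered in CD31+CD34+ cells were called whichever single library was left out. A mean of at least 5 FPKM left only 5 factors to test and gave 5 and 5. It then gave 1 lowered in CD43+ cells and 1 raised in CD31+CD34+ cells against H1 cells. In the same order, 7.79%, 19.3%, 9.93% and 19.7% of all genes tested went that way. A 4-fold minimum gave 7 raised in APLNR+ cells (without TBX6), 5 lowered in CD31+CD34+ cells and 1 lowered in CD43+ cells. It gave 1 raised in CD31+CD34+ cells against H1 cells. The shares of all genes tested were 2.57%, 2.98%, 1.81% and 5.34%. With a pseudocount of 0.1, 4 were lowered in CD43+ cells, and against H1 cells 6 were raised in CD31+CD34+ and 2 in CD43+ cells. In the same order, 14.7%, 22.1% and 19.0% of all genes tested went that way. The median r between factors was then 0.914. With no minimum change the 3 counts were 6, 6 and 1, where 27.8%, 35.9% and 33.2% of all genes tested went that way. Rescaling the genes tested to equal totals gave 7 lowered in CD31+CD34+ cells (without TBX6) and 3 lowered in CD43+ cells (with MIXL1). It gave 5 raised in CD31+CD34+ cells against H1 cells. The shares of all genes tested were 9.73%, 8.15% and 36.5%.

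That rescaling moved the median log2 change of all genes from -0.12 to 0.18 (APLNR+ against H1), from -0.01 to 0.34 (CD31+CD34+ against APLNR+), from -0.07 to 0.59 (CD31+CD34+ against H1) and from -0.10 to 0.65 (CD43+ against H1). The genes raised and lowered went from 1232 and 1131 to 1561 and 514, from 1861 and 2539 to 3536 and 1444, from 2514 and 3441 to 5422 and 1512, and from 2163 and 3338 to 5599 and 1434. Of all genes, 3632 (APLNR+ against H1) and 3605 (CD43+ against CD31+CD34+) were called with a pseudocount of 0.1. With a mean of at least 5 FPKM 1193 and 1313 were, in the same order, and 3752 and 3309 in the CD31+CD34+ and CD43+ comparisons with H1. With no minimum change 8594, 10948 and 7961 were called at the 3 steps and 11473 and 11076 against H1, and with a 4-fold minimum 569, 875, 454, 1771 and 1664.

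The changes that turned sign were small and not called. TBX6 gave 0.11 (CD43+ against CD31+CD34+) and -0.0226 (CD31+CD34+ against H1) after quantile normalization, and -0.0265 in CD43+ cells against H1 cells with a pseudocount of 0.1. In that comparison, rescaling gave 0.01255 for MIXL1 and 0.0245 for LHX1, and replicates 2 and 3 alone gave -0.0340 for MESP2 and 0.0148 for LHX1. GSC in CD31+CD34+ cells against H1 cells gave -0.0276 with replicates 2 and 3 alone. Leaving out 1 library gave ranges of -0.124 to 0.0464 for TBX6 (CD43+ against CD31+CD34+), -0.00872 to 0.168 for GSC (CD31+CD34+ against H1) and, in CD43+ against H1 cells, -0.209 to 0.0278 for MIXL1, -0.0210 to 0.104 for MESP2, -0.0906 to 0.0800 for TBX6 and -0.0625 to 0.0257 for LHX1. It also gave calls to T (1.11 without CD31+CD34+ replicate 3) and MESP1 (1.001 without H1 replicate 1, 1.09 without CD31+CD34+ replicate 2) in CD31+CD34+ against H1 cells, and to MIXL1 (-1.001 without CD31+CD34+ replicate 1) in CD43+ against CD31+CD34+ cells. The cause was not tested.

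Equal replicate numbers were not taken to pair libraries. Deviations from the population means had r between -0.0214 and 0.429 for equal numbers (median 0.201, 18 pairs) and a median of -0.152 for unequal numbers (36 pairs). The pairs of replicate 1 lay between 0.196 and 0.429, but those of replicates 2 and 3 reached down to 0.0254 and -0.0214, below the 0.1 asked of every pair. With the replicate block the factors called were 8 raised, 8 lowered, 2 lowered, 2 raised and 0 raised, the same counts as without it. In the same order, 8.33%, 17.1%, 8.80%, 17.0% and 14.6% of all genes tested went that way. Without a filter on low values (34116 genes) the factors called were also 8, 8, 2, 2 and 0. The shares of all genes were then 3.63%, 7.43%, 3.81%, 7.38% and 6.39%.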

Other observations

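Relatives of the streak factors were followed in the same way. Of 14 other T-box genes 3 were tested, and TBX3 and TBX20 were raised in APLNR+ cells. TBX20, a factor of cardiac mesoderm, went from 0.0458 ± 0.0243 FPKM in H1 cells to 2.15 ± 0.185 in APLNR+ cells (SD, n = 3; limma, log2 change 1.59, adjusted p = 1.23e-07) and stood at 5.12 ± 0.379 in CD31+CD34+ cells, where T, EOMES and TBX6 were lowered. MGA, a repressor with a T-box domain present in many cells, was not called at any of the 3 steps, and stood at 24.7 ± 2.48, 16.5 ± 1.74, 10.8 ± 1.22 and 14.1 ± 1.95 FPKM. None of the 3 was called from APLNR+ to CD31+CD34+ cells, and TBX3 and TBX20 were lowered in CD43+ cells.

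Of 17 LIM-homeodomain genes and LIM cofactors 7 were tested. ISL1 and LDB2 were raised in APLNR+ cells, 2 were raised and 1 lowered in CD31+CD34+ cells, and 1, LDB2, was lowered in CD43+ cells. LDB1, the cofactor through which LHX1 works, stood at 16.9 ± 1.57 FPKM in H1 cells and 16.1 ± 1.80 in APLNR+ cells, with a log2 change of -0.06 (limma, adjusted p = 0.741). Of 8 caudal genes 5 were tested and 3 were raised in APLNR+ cells. CYP26A1, an enzyme that breaks down retinoic acid, went from 1.03 ± 0.0647 to 130 ± 4.88 FPKM (limma, log2 change 6.01, adjusted p = 5.78e-13) and then to 10.5 ± 0.579 FPKM in CD31+CD34+ cells. EVX1, a homeobox gene of the posterior streak, was raised from 0.0225 ± 0.0361 to 3.23 ± 0.434 FPKM and stood at 4.69 ± 0.0838 FPKM in CD31+CD34+ cells. From APLNR+ to CD31+CD34+ cells 1 caudal gene was raised and 2 lowered, and to CD43+ cells 3 were lowered.

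Of the genes next to a factor in RefSeq order and present among those tested, ANPEP, beside MESP2, was raised in APLNR+ cells, from 0.470 ± 0.167 to 6.04 ± 0.297 FPKM (limma, log2 change 2.26, adjusted p = 9.56e-08), and stood at 8.00 ± 1.41 FPKM in CD31+CD34+ cells, where MESP2 was lowered. LINC01980 beside EOMES, LIN9 beside MIXL1, PPP4C and YPEL3 on either side of TBX6 and AATF beside LHX1 were not called at that step. LINC02084, the other neighbour of EOMES, did not reach the level for testing and stood at 0 in the 3 H1 libraries, 0.572 ± 0.0208 FPKM in APLNR+ cells and 0.113 ± 0.0476 FPKM in CD31+CD34+ cells.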
